A study of Homo sapiens with 3 samples.

Results

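The receptor tyrosine kinases outside the ERBB family are the cell-surface receptors for growth factors, ephrins, collagens and other signals that carry a tyrosine kinase in their intracellular part. The set was a list of 49 receptor genes given by name, out of 23379 genes measured. Of the 49, 31 had a row in the expression tables and 18 had none and were counted as 0, although a missing row does not tell an expression of 0 from a gene left out of the tables. RNA was sequenced in 3 libraries from cells labelled DU145, the name of an established human prostate carcinoma line first taken from a brain metastasis. The identity of the cells rests on the labels. One library came from cells transfected with plasmids for the BRAF mutant L597R, 1 from cells overexpressing wild-type BRAF (WT) and 1 from negative control cells (P-Enter). The labels do not say how long the plasmids had been in the cells, whether the cells were a pool or a clone, or what the control cells carried.

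Ligand binding brings 2 receptor molecules together, and each phosphorylates tyrosines on the other. Adaptor proteins such as GRB2 and SHC1 dock on these tyrosines and pass the signal to RAS, and from there through RAF kinases, BRAF among them, to MEK and ERK, while other docking proteins lead to PI3 kinase. In carcinoma cells AXL, MET and EPHA2 are known for their part in migration, invasion and resistance to kinase inhibitors.

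Levels are given in FPKM, in which reads are scaled to gene length and to the size of the library. The whole reads behind each FPKM value were worked out from the values themselves, from library totals of 16603676 reads in L597R, 15665132 in WT and 13294004 in P-Enter. BRAF was at 9.59 FPKM in L597R, 4.41 in WT and 1.65 in P-Enter, so L597R and WT both held more BRAF reads than the control. With 1 library in each group there is no replicate error, no p-value and no test of a condition. Intervals are exact 95% Clopper-Pearson intervals of a read ratio. They reflect counting error alone and set 1 library against another, not 1 condition against another. In such bulk RNA, fewer cells that express a receptor and less RNA per cell cannot be told apart. Of 8 markers of prostate and other epithelium 1 reached a mean of 1 FPKM, KRT18, at 37.6 FPKM in L597R, 36.6 in WT and 34.3 in P-Enter. CDH1, the epithelial cadherin, had 0 reads in L597R, 0 in WT and 1 in P-Enter, and EPCAM, KRT5, TP63 and KLK3 had no row. The mesenchymal marker VIM was at 132, 127 and 130 FPKM in that order, so several defining markers of epithelium were at or near 0 in cells labelled as a prostate carcinoma line. Summed over the markers of a type, endothelial, blood and fibroblast markers each came to at most 0.205 FPKM in every library. The neural and neuroendocrine markers summed to 8.17 FPKM in L597R, 8.13 in WT and 8.78 in P-Enter, nearly all from ENO2, and the melanocyte markers to 1.16, 1.04 and 1.14.

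The promoter sequences of 4 receptors are shown because they stand for the main patterns below: AXL and EPHA2 are the most abundant receptors and differed alike, and MET and MST1R are the 2 members of 1 family and differed in opposite directions in L597R. Each window runs 5′ to 3′ on the gene's own strand from 250 bases before to 50 bases after a transcription start in RefSeq on GRCh38.p14. They are AXL at chr19:41218973-41219272 (plus strand), EPHA2 at chr1:16156020-16156319 (minus), MET at chr7:116671946-116672245 (plus) and MST1R at chr3:49903824-49904123 (minus). Capitals mark matches on either strand to the GC box GGGCGG and the ETS core CCGGAAG, with overlapping matches run together.

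AXL: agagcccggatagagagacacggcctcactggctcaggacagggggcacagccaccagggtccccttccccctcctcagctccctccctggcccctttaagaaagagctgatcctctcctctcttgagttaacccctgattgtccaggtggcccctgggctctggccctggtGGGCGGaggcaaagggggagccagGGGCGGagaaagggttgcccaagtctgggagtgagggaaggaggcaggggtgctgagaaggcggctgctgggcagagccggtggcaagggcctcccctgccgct
EPHA2: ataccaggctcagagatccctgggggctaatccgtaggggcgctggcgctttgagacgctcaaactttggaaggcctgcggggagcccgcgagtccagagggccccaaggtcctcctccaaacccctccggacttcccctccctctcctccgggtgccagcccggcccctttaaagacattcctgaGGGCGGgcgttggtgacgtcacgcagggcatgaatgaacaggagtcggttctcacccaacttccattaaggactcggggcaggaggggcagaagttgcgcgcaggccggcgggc
MET: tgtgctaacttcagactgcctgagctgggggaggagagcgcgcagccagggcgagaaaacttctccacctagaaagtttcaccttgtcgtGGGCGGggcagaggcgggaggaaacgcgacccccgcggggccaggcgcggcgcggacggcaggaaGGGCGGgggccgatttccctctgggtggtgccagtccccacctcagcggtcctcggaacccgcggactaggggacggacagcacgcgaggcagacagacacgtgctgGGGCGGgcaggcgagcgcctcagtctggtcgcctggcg
MST1R: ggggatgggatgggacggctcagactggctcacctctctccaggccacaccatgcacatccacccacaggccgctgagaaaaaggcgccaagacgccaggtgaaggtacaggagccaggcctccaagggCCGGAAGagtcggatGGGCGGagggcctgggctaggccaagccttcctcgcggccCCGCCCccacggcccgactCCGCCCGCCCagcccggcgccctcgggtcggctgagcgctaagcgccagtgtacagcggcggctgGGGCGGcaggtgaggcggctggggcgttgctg

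Windows were matched for 45 of the 49 receptors, taking the start nearest to the GENCODE 5′ end of the gene. Some of these starts lie far from that end, by 1537 bases in TYRO3, 4549 in DDR1, 7695 in EPHB6 and 197459 in EPHB1. The GC box was found in 12 of the 13 matched receptors with a mean of at least 1 FPKM, in 9 of 15 at a lower mean and in 13 of 17 without a row, against 45% of all 35116 windows. The AP-1 site TGANTCA was found in 1 of the 13, TYRO3, in 3 of the 15 and in 0 of the 17, against 7.71% of all windows, and the ETS core in 1 of the 13, MST1R, in 1 of the 15 and in 0 of the 17, against 10.3%. The 13 windows held a median of 34 CG dinucleotides, with 7 in AXL and 55 in IGF1R at the ends of the range, while the 15 windows of receptors under 1 FPKM held a median of 19, the 17 without a row 24 and all windows 14. A TATAAA box was found in 0 of the 13 windows, 1 of the 15 and 1 of the 17, against 11.5% of all windows. The windows also differed in GC content, with a median of 73.3% in the 13, 65% in the 15 and 68.3% in the 17. Over all windows the median was 58.7%, and the motif counts were not adjusted for GC content. A match describes letters in a window and is no evidence that a factor binds there.

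Of the 49 receptors 31 had a row and 14 had a mean of at least 1 FPKM over the 3 libraries. Among all genes with a row, 10639 of 23379 reached that mean. AXL and EPHA2 stood far above the other receptors. Together they made up 77.7% of the summed FPKM of all receptors in L597R, 79.6% in WT and 79.9% in P-Enter. AXL, a receptor for the vitamin K-dependent protein GAS6, was at 136 FPKM in L597R, 151 in WT and 155 in P-Enter. It ranked 263rd, 233rd and 227th among all genes in the same order. EPHA2, the receptor for the membrane-bound ephrin-A ligands, was at 132 FPKM in L597R, 144 in WT and 151 in P-Enter. In 2 of the 3 libraries the counting intervals of AXL and EPHA2 overlapped, while AXL was the higher in all 3.

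MET, the receptor for hepatocyte growth factor, came next at 24.4 FPKM in L597R, 19.6 in WT and 18.5 in P-Enter. Its intervals overlapped with those of EPHA2 above it and MERTK below it in 0 of the 3 libraries. MERTK, a relative of AXL known for the uptake of dead cells, was at 9.41, 9.55 and 10.2 FPKM in L597R, WT and P-Enter. RYK, a receptor for WNT proteins with a kinase domain thought to be inactive, was at 8.44, 8.74 and 9.01 FPKM. These 2 did not differ beyond their intervals in any library. A group of 3 followed at close levels. EPHB4, the receptor for ephrin-B2, was at 6.47 FPKM in L597R, 7.30 in WT and 7.33 in P-Enter. PTK7, a further receptor of WNT signalling without kinase activity, was at 6.23, 6.71 and 7.0 FPKM in the same order. MST1R (also called RON), the relative of MET that binds macrophage-stimulating protein, was at 6.0, 6.13 and 7.53 FPKM. Neighbours in this group had overlapping intervals in all 3 libraries.

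The other 6 lay lower. FGFR1, a receptor for fibroblast growth factors, was at 3.37 FPKM in L597R, 3.70 in WT and 3.37 in P-Enter. IGF1R, the receptor for insulin-like growth factors, was at 2.80, 3.25 and 3.37 FPKM in that order. TYRO3, a further relative of AXL, was at 2.38, 3.28 and 3.07 FPKM. FGFR1 and IGF1R had overlapping intervals in 2 libraries, IGF1R and TYRO3 in 3, and TYRO3 and KIT in 2. KIT, the stem cell factor receptor, was at 2.80 FPKM in L597R, 2.47 in WT and 2.53 in P-Enter. EPHB2, a second receptor for ephrin-B ligands, was at 1.28, 1.26 and 1.23 FPKM, with intervals apart from those of KIT in every library. DDR1, a receptor that binds collagen, was at 0.905, 1.08 and 1.2 FPKM and so lay under 1 FPKM in L597R only.

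**Figure D1:**
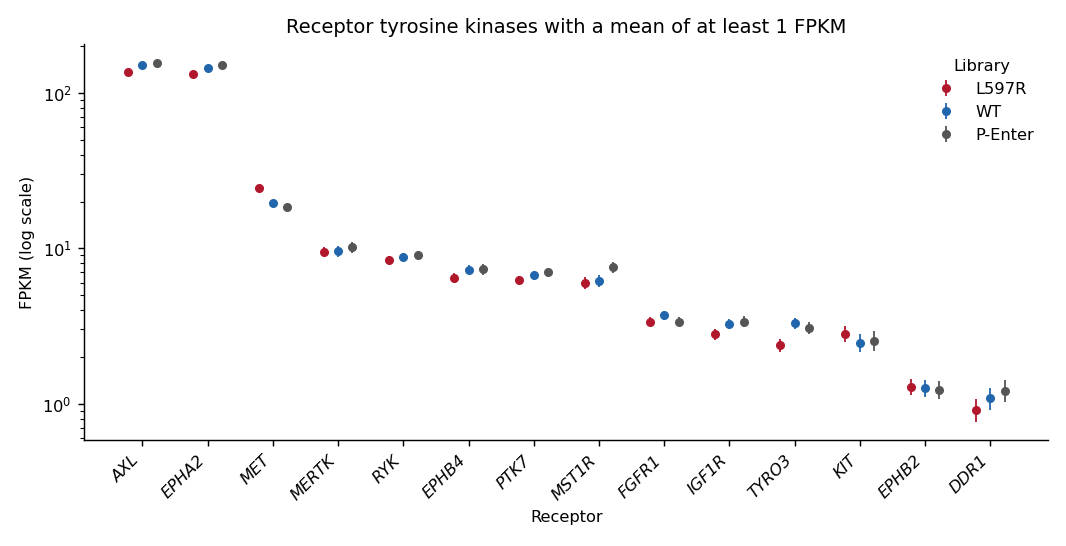
FPKM on a log axis of the 14 receptors with a mean of at least 1 FPKM, for the L597R, WT and P-Enter libraries; points are single libraries and bars are exact 95% Poisson intervals of the reads. AXL and EPHA2 lie between 132 and 155 FPKM in all 3 libraries, and MET lies at 24.4 FPKM in L597R against 18.5 in P-Enter.

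By family, the TAM receptors (AXL, MERTK and TYRO3) summed to 148 FPKM in L597R, 164 in WT and 169 in P-Enter. Of the 9 EphA receptors 1, EPHA2, reached a mean of 1 FPKM, and of the 5 EphB receptors 2 did. The MET family of 2 receptors summed to 30.4, 25.7 and 26.0 FPKM in that order. KDR, TIE1, ALK and LTK lay under a mean of 1 FPKM, and the other VEGF, TIE and TRK receptors of the set, ROS1 and RET had no row. All 49 receptors together took 0.185% of the counted reads in L597R, 0.197% in WT and 0.202% in P-Enter.

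There were 17 receptors with a row and a lower mean. ROR1, a WNT5A receptor known from embryonic tissue and leukaemia, lay just under the level rule at 1.09 FPKM in L597R, 0.807 in WT and 0.739 in P-Enter, and DDR1 just over it. INSR, the insulin receptor, was at 0.667, 0.666 and 0.771 FPKM. DDR2, the second collagen receptor, had 50, 38 and 35 reads, FGFR4 had 14, 26 and 12 and EPHA3 had 19, 12 and 12 in L597R, WT and P-Enter. The other 12 had at most 17 reads in any library. PDGFRA, the alpha receptor for platelet-derived growth factors, had 0 reads in L597R, 9 in WT and 17 in P-Enter. The counting interval of its read ratio reached from 0 to 0.194 for L597R over P-Enter and from 0 to 0.478 for L597R over WT. LTK, a relative of ALK, had 0, 1 and 6 reads in that order (L597R over P-Enter 0 to 0.680). FGFR3 had 2 reads in L597R, 2 in WT and 8 in P-Enter (read ratio of L597R over P-Enter 0.200, 0.0207 to 1.0). EPHA10 had 5, 3 and 7 reads and PDGFRB 2, 4 and 6. CSF1R, the macrophage colony-stimulating factor receptor, had 0, 0 and 3 reads. ALK, KDR, TIE1, INSRR, EPHA6 and EPHA5 had 0 to 2 reads in every library, and CSF1R and KDR are also markers of blood and endothelial cells. The 18 without a row were EPHA1, EPHA4, EPHA7, EPHA8, EPHB1, EPHB3, EPHB6, FGFR2, FLT1, FLT3, FLT4, NTRK2, NTRK3, ROR2, RET, TEK, ROS1 and MUSK.

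**Figure D2:**
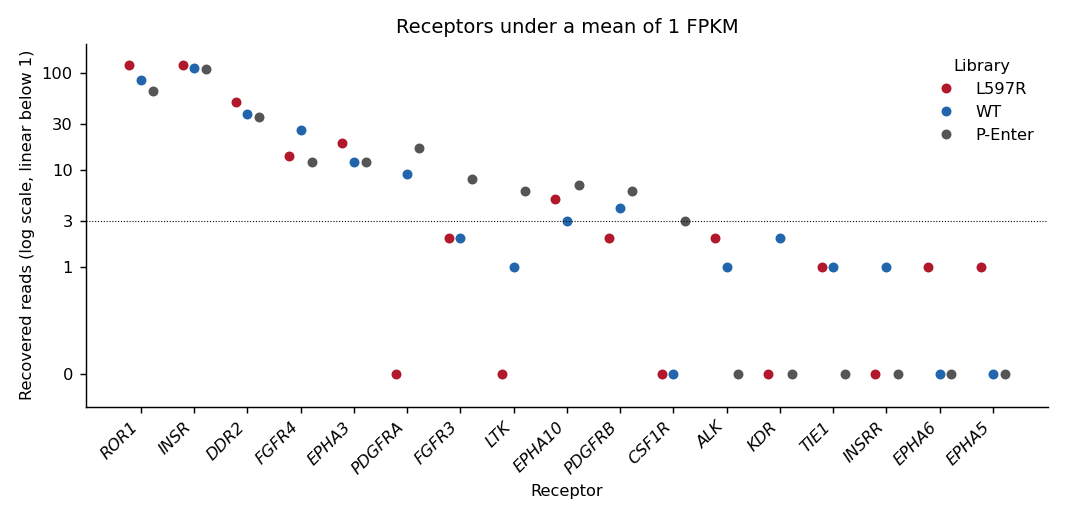
Recovered reads of the 17 receptors with a mean under 1 FPKM in the L597R, WT and P-Enter libraries, on an axis that is logarithmic above 1 and linear below; the dotted line marks 3 reads. PDGFRA has 0 reads in L597R against 17 in P-Enter, and ROR1 has 122 reads in L597R against 66 in P-Enter.

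Setting L597R against P-Enter asked how receptor expression went with mutant BRAF. MET was higher in L597R, with 2921 reads against 1777 in P-Enter (read ratio 1.32, 1.24 to 1.40), and most of the other receptors were slightly lower. The size rule asked for a difference of 1 or more in log2(FPKM + 1) and a mean FPKM of 1 or more. Of the 14 receptors 0 met it, beside 0.808% of 10639 genes compared. At 1.5-fold on the same scale 0 of the 14 passed as well, beside 3.03% of genes. Of the 14, 11 lay below P-Enter (78.6%, beside 51.4% of genes) and 3 above. The interval of the read ratio lay below 1 for 8 (57.1%) and above 1 for 1 (7.14%), beside 23.9% and 25.5% of all genes compared. Intervals are narrower for genes with more reads, so these shares also follow expression. The median difference over the 14 was -0.15 on the log2(FPKM + 1) scale, beside -0.01 over all genes compared.

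Each receptor with an interval below 1 differed by less than 1.5-fold. AXL had 11616 reads in L597R against 10613 in P-Enter (read ratio 0.876, 0.853 to 0.900). EPHA2 had 9100 and 8286 reads (0.879, 0.853 to 0.906), so the 2 most abundant receptors were lower by the same proportion within counting error. On GRCh38, AXL spans chromosome 19 from 41219203 to 41261766 (plus strand) and EPHA2 spans chromosome 1 from 16124337 to 16156087 (minus strand). TYRO3 had 426 reads in L597R against 440 in P-Enter (0.775, 0.677 to 0.888). MST1R had 523 and 526 reads (0.796, 0.704 to 0.900), where MET of the same family was higher. MET was therefore 4.06 times MST1R in FPKM in L597R, 3.20 times in WT and 2.46 times in P-Enter. MET spans chromosome 7 from 116672390 to 116798386 (plus strand) and MST1R spans chromosome 3 from 49887002 to 49903873 (minus strand). The other 4 were DDR1 at 0.751 (0.591 to 0.955), IGF1R at 0.830 (0.743 to 0.928), EPHB4 at 0.884 (0.792 to 0.986) and PTK7 at 0.891 (0.810 to 0.979). For MERTK, RYK, FGFR1, KIT and EPHB2 the interval held 1. Under the level rule ROR1 was higher in L597R (1.48, 1.09 to 2.03).

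**Figure D3:**
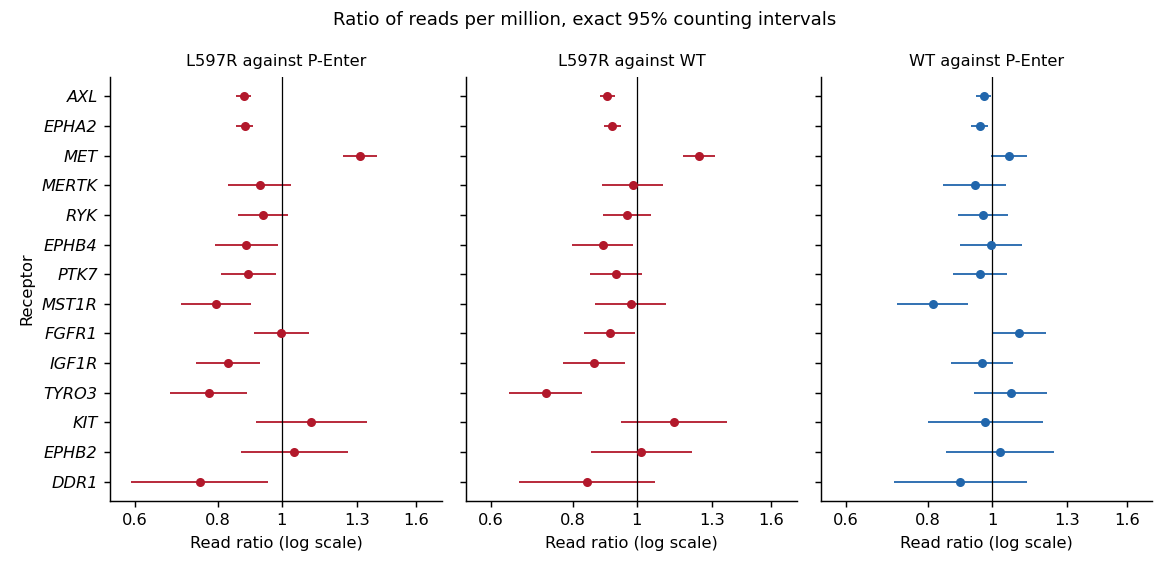
Ratio of reads, scaled to the library totals, for the 14 receptors in L597R against P-Enter, L597R against WT and WT against P-Enter, on a log axis; points are ratios of single libraries and bars are exact 95% counting intervals. MET lies at 1.32 against P-Enter and 1.24 against WT, while AXL and EPHA2 lie between 0.876 and 0.918 in both comparisons of L597R.

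Differences between these libraries followed the GC content of transcripts across all genes, and most of the 14 receptors were richer in GC than the median gene. Their longest transcripts had a median GC content of 53.5%, against 47.4% over 9358 protein-coding genes compared. MET (42.4%), KIT (42.6%) and RYK (36.8%) lay below 47.4% and the other receptors above it. Across the 9358 genes the Spearman correlation of GC content with the difference between L597R and P-Enter was -0.69. Across the 14 receptors, which share the same 2 libraries, it was -0.60. A regression took out what GC content, gene length and expression level predict. The median residual over the receptors was -0.015, with 10 below 0 and 4 above. This split was not set beside that of all fitted genes, and several residuals lay close to 0. Below 0, EPHB4 and PTK7 were at -0.01 and DDR1 at -0.02, and above 0, KIT was at 0.004. AXL was then at -0.05 and EPHA2 at -0.01, so the lower level of both shrank to a few hundredths on the log2 scale. MST1R was at -0.14, IGF1R at -0.13 and TYRO3 at -0.17, where the residuals of all fitted genes had an SD of 0.16. MET kept a residual of 0.25 and EPHB2 one of 0.19. The 845 genes with a GC content from 42% to 44%, the range that holds MET, had a median difference of 0.11 and a 90th percentile of 0.34, and MET was at 0.38. KIT, in the same range, was at 0.11. RYK stood out in the other direction. Its GC content of 36.8% put it among 551 genes with a median of 0.30 and a 10th percentile of 0.08, while RYK itself was at -0.08 (residual -0.38). TYRO3, with a GC content of 53.1%, was at -0.27, under the 10th percentile of -0.25 for genes from 52% to 54%. EPHB2, with a GC content of 55.6%, was at 0.03, the 90th percentile of genes from 54% to 56%. The part of base composition in single receptors was not tested beyond this regression.

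**Figure D4:**
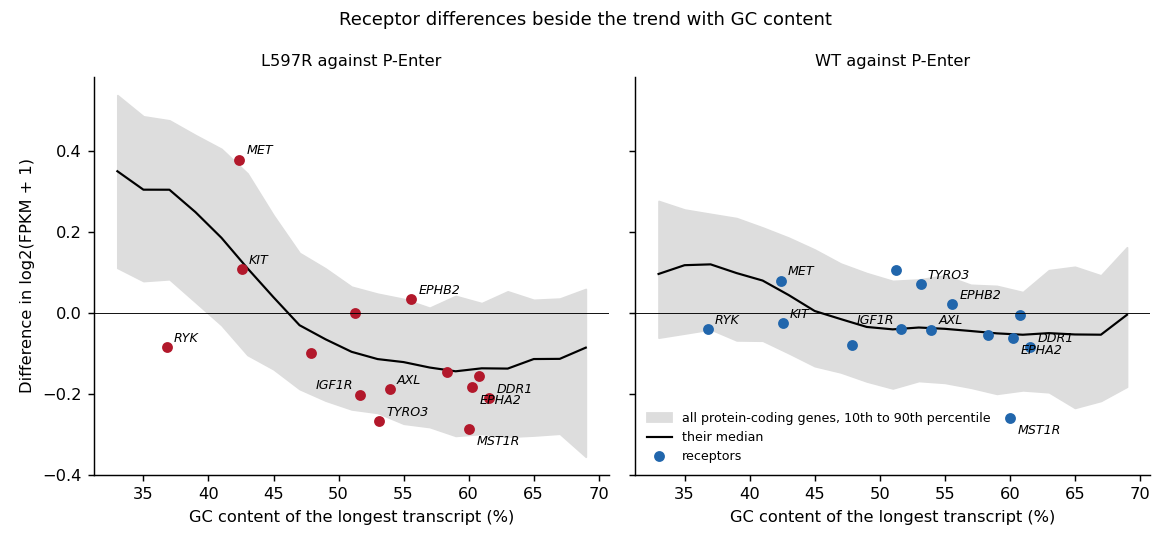
Difference in log2(FPKM + 1) against the GC content of the longest transcript in percent, for L597R against P-Enter and WT against P-Enter. Points are the 14 receptors; the line and the band are the median and the 10th to 90th percentile of protein-coding genes with a mean of at least 1 FPKM in steps of 2 percentage points. In the L597R panel MET at 0.38 lies above the band, EPHB2 at 0.03 lies at its upper edge, and RYK at -0.08 and TYRO3 at -0.27 lie below it.

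L597R against WT put mutant beside wild-type BRAF. The BRAF read ratio was 2.18 (2.05 to 2.31), so a receptor difference that goes with the mutation cannot be told apart from one that goes with more BRAF. MET was the 1 receptor with an interval above 1, with 2921 reads in L597R and 2220 in WT (read ratio 1.24, 1.17 to 1.31). Both comparisons of L597R share its single library. Receptors that differ in both, MET among them, therefore rest on 1 L597R value, and the second comparison is no independent repeat. TYRO3 differed most in the other direction, with 426 reads in L597R against 553 in WT (0.727, 0.639 to 0.826). Of the 14 receptors 0 passed the size rule, beside 0.724% of genes, and 0 differed by 1.5-fold on the same scale, beside 2.23%. Below WT lay 11 of the 14, beside 47.8% of genes. The interval lay below 1 for 6 (42.9%, beside 16.3% of all genes) and above 1 for 1 (beside 22.1%). Besides TYRO3 the 6 were AXL at 0.902 (0.879 to 0.925), EPHA2 at 0.918 (0.892 to 0.945), IGF1R at 0.861 (0.773 to 0.959), EPHB4 at 0.887 (0.798 to 0.985) and FGFR1 at 0.909 (0.831 to 0.995). After the regression MET was at 0.22, TYRO3 at -0.27, IGF1R at -0.10, AXL and EPHB4 at -0.06, FGFR1 at -0.05 and EPHA2 at -0.01, with an SD over fitted genes of 0.14. Of the receptors whose interval held 1, RYK was at -0.23 after the regression and EPHB2 at 0.12. MST1R did not separate these libraries (0.979, 0.865 to 1.11). ROR1 was higher in L597R than in WT (1.35, 1.02 to 1.81).

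WT against P-Enter addressed the same question for wild-type BRAF. The receptors lay close to the control. Of the 14, 0 passed the size rule, beside 0.978% of genes, and 0 differed by 1.5-fold, beside 2.19%. Below P-Enter lay 10 of the 14 (71.4%), beside 50.2% of genes. The interval lay below 1 for 3 (21.4%, beside 12.1% of all genes) and above 1 for 0 (beside 14.0% of all genes). The median difference over the 14 was -0.04, beside 0.00 over all genes compared. MST1R was lower in WT, with 504 reads against 526 (read ratio 0.813, 0.718 to 0.921), and its residual after the regression was -0.20 with an SD over fitted genes of 0.13. AXL was at 0.972 (0.946 to 0.997) and EPHA2 at 0.958 (0.930 to 0.987), and after the regression both were at 0.01. MET was at 1.06 (0.996 to 1.13) and FGFR1 at 1.10 (0.999 to 1.21), both with a lower bound just under 1. TYRO3 was at 1.07 (0.939 to 1.21), on the other side of P-Enter from its value in L597R. The comparisons of L597R and WT with P-Enter share the P-Enter library, so MST1R, lower in both, rests on a single control value.

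The ligands of the receptors in the set were expressed unevenly. Of 51 listed ligands 37 had a row and 18 a mean of at least 1 FPKM, beside 10639 of 23379 genes. Of the 18, 0 passed the size rule in any comparison, beside 0.724% to 0.978% of all genes. In L597R against P-Enter the interval lay above 1 for 6 of the 18 and below 1 for 4, beside 25.5% and 23.9% of all genes, and the list median was 0.04, beside -0.01 over all genes. The 4 highest ligands were VEGFB, PROS1, FGF5 and FGF2. PROS1, a ligand of the TAM receptors MERTK and TYRO3 that also acts in blood clotting, was at 20.5 FPKM in L597R, 16.3 in WT and 15.5 in P-Enter (read ratio of L597R over P-Enter 1.33, 1.23 to 1.43). FGF2, a ligand of FGFR1, was at 15.2, 12.0 and 10.1 FPKM (1.5, 1.38 to 1.62), and FGF5, a further ligand of FGF receptors, at 15.3, 15.5 and 13.9 FPKM (1.11, 1.02 to 1.2). VEGFB, a ligand of FLT1, which had no row, was at 16.9 FPKM in L597R and 16.8 in WT, against 20.2 in P-Enter. Its read ratio over P-Enter was 0.840 (0.744 to 0.948) in L597R and 0.831 (0.735 to 0.940) in WT. Its GC content was 66.7%, and after the regression it was at -0.15 in L597R and -0.21 in WT. The transcripts of PROS1 (40.5% GC), FGF2 (37.5%) and FGF5 (36.7%) are poor in GC, and after the regression they were at 0.21, 0.26 and -0.16. Ligands named next were chosen as partners of expressed receptors after their values had been seen. HGF, the ligand of MET, had 0 reads in L597R, 1 in WT and 0 in P-Enter. GAS6 was at 4.63, 4.64 and 4.96 FPKM in that order. KITLG, the ligand of KIT, was at 1.96, 1.36 and 1.18 FPKM (read ratio of L597R over P-Enter 1.67, 1.3 to 2.15; GC content 37.3%, residual 0.20 of a difference of 0.44). MST1, the ligand of MST1R, was at 0.438, 0.565 and 0.577 FPKM, and EFNA1, an ephrin-A ligand of EPHA2, had 1, 2 and 1 reads. Of the other ephrin-A ligands EFNA5 was at 5.87, 6.22 and 6.93 FPKM and EFNA4 at 1.44, 1.57 and 2.03.

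Of 17 co-receptors 8 had a mean of at least 1 FPKM. Of these, 0 passed the size rule in any comparison, beside 0.724% to 0.978% of all genes. In L597R against P-Enter the interval lay above 1 for 1 and below 1 for 2 of the 8, beside 25.5% and 23.9% of all genes, with a list median of -0.01, the same as over all genes to 2 decimals. CD44, which can present HGF to MET, was at 74.5 FPKM in L597R, 76.0 in WT and 76.7 in P-Enter. The heparan sulphate carrier SDC4 was at 53.0, 57.8 and 60.0 FPKM (read ratio of L597R over P-Enter 0.883, 0.832 to 0.938; residual -0.14). GPC1 and SDC1, of the same kind, were at 11.8 and 6.03 FPKM in L597R against 11.7 and 6.33 in P-Enter.

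Of 26 adaptors and effectors 24 had a mean of at least 1 FPKM. Of these, 0 passed the size rule in any comparison, beside 0.724% to 0.978% of all genes. In L597R against P-Enter the interval lay above 1 for 8 and below 1 for 8 of the 24, beside 25.5% and 23.9% of all genes, with a list median of 0.02. SHC1, an adaptor that couples receptors to GRB2, was at 170 FPKM in L597R, 189 in WT and 194 in P-Enter (read ratio of L597R over P-Enter 0.881, 0.858 to 0.904; residual after the regression -0.01). PTPN11, the phosphatase SHP2 that promotes RAS activation downstream of receptors, was at 52.1, 46.0 and 40.8 FPKM (1.28, 1.23 to 1.33; residual 0.22). GRB2 was at 43.3, 44.8 and 45.9 FPKM, and CRKL, a further adaptor, at 39.8, 44.5 and 42.9. Of 25 negative regulators and sheddases 20 had a mean of at least 1 FPKM. Of these, 0 passed the size rule in any comparison, beside 0.724% to 0.978% of all genes. In L597R against P-Enter the interval lay above 1 for 5 and below 1 for 8 of the 20, beside 25.5% and 23.9% of all genes. The list median was -0.07, beside -0.01 over all genes. ERRFI1, an inhibitor of EGFR that is also known to bind other signalling proteins, was at 68.0 FPKM in L597R, 66.3 in WT and 64.0 in P-Enter. The receptor phosphatase PTPRF was at 46.7, 51.1 and 53.9 FPKM (0.866, 0.840 to 0.894; residual -0.06). PTPN1, which dephosphorylates the insulin receptor and others, was at 33.0, 34.3 and 35.2 FPKM, and SOCS3, an inhibitor of cytokine receptors, at 22.6, 21.8 and 23.4.

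**Figure D5:**
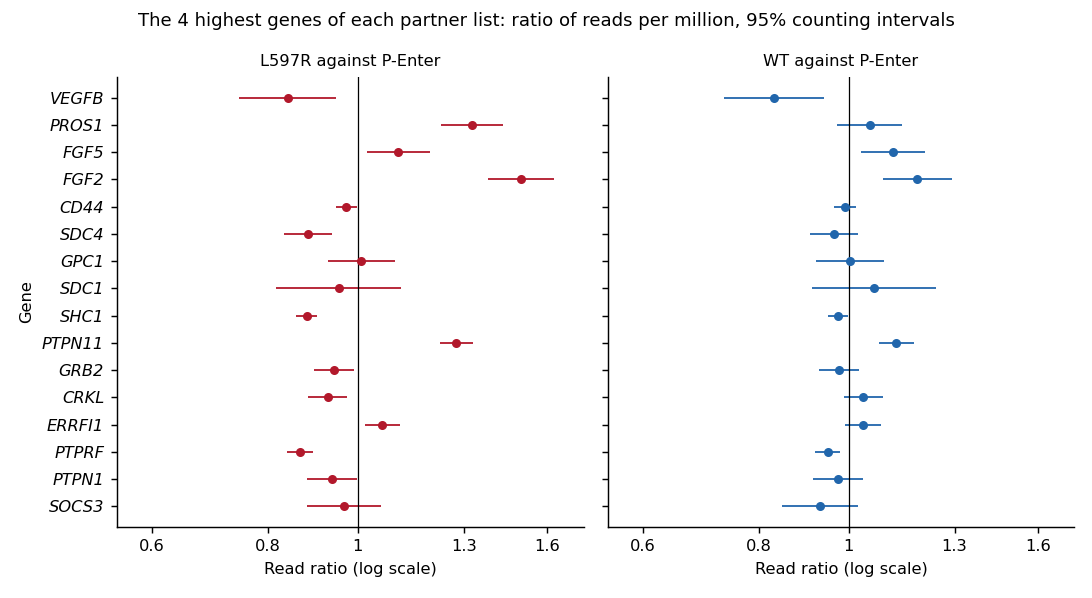
Ratio of reads, scaled to the library totals, in L597R against P-Enter and in WT against P-Enter for the 4 most abundant genes of each list: ligands (VEGFB to FGF2), co-receptors (CD44 to SDC1), adaptors and effectors (SHC1 to CRKL) and negative regulators (ERRFI1 to SOCS3). Points are ratios of single libraries on a log axis and bars exact 95% counting intervals; FGF2 lies at 1.5, PROS1 at 1.33 and PTPN11 at 1.28 in L597R.

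Some receptor genes overlap other annotated genes, and the strand setting of the counting is not given in the sources used here. AXL is overlapped on the opposite strand by a gene at a mean of 3.70 FPKM, and EPHB4 by SLC12A9 at 3.01 FPKM. EPHA2 is overlapped by EPHA2-AS1 at 0.656 FPKM. Reads of these pairs cannot be told apart with certainty. MET, PTK7, TYRO3 and KIT overlap no other annotated gene.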

How the data were processed

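The 3 RNA-seq libraries, 1 per group, came from Trizol RNA and a kit for stranded mRNA libraries, per the labels' protocols. HISAT2, HTSeq, Cufflinks and Trimmomatic, with the build hg38/GRCh38, are named in the submitters' processing notes. Their versions, the strand setting and annotation release are not given in the sources used here. The values the authors deposited are FPKM for each Ensembl gene, as the file headers name them.

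A search over library totals and gene lengths turned FPKM into whole reads in all 3 libraries, within 1e-05 reads, and gave reads for 23378 of 23379 genes. Of these, 47.5% had exactly the exon length of GENCODE 29, and the reads summed to 100.8% of each total. Why they exceed it was not tested. No count model was fitted. A table of gene names gave the symbols (23330 IDs matched); positions, exon lengths and GC content came from GENCODE 29 on GRCh38 (22807 IDs matched). GC content was that of the longest transcript.

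The size rule was a log2(FPKM + 1) difference of at least 1 at a mean of at least 1 FPKM, applied to all genes. Ratios of reads, scaled to the library totals, have exact 95% intervals conditional on the sum of both counts. Reads without molecular identifiers are not independent molecules, and the intervals hold counting error alone. The regression used cubic terms in log exon length, GC content and log mean FPKM. Scripts were tested on simulated data.

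All receptors with a mean of at least 1 FPKM were named, and from each partner list the 4 highest genes and any past the size rule. The members and lists were chosen with earlier results of these data known. Some epithelial markers are not reported here. Alternatives were other pseudocounts, filters and thresholds, rescaling by the median ratio, recovered reads and the regression. The software was scipy 1.17.1, numpy 2.4.6, matplotlib 3.10.9 and pandas 2.3.3 under Python 3.11.15.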

Additional observations from a re-analysis of the deposited data

How the results depend on the processing

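No receptor passed the size rule in any of the 3 comparisons with a pseudocount of 0.1 or 5, without a filter, at a mean of at least 5 FPKM, at 1.5-fold or after rescaling by the median ratio. With a pseudocount of 1, a receptor under 1 FPKM in every library cannot reach the rule. The setting without a filter therefore could not let such a receptor pass. Among the 14 with a mean of at least 1 FPKM, 0 had an interval of recovered reads beyond 1.5-fold. Below that mean, PDGFRA did in L597R against P-Enter (0 to 0.194) and against WT (0 to 0.478). It was picked from 17 receptors under that mean and had 0 reads in L597R, 9 in WT and 17 in P-Enter. The share of all genes beyond 1.5-fold by this interval was not worked out. The number of receptors past the level rule was 14, and it was 8 for means of 5 FPKM or more, 16 at a mean of at least 0.5 and 13 where every library had to reach 1. The median difference of L597R against P-Enter, -0.15, was -0.015 after the regression on base composition, length and expression; the cause was not tested beyond that regression. In the same comparison the regression moved 9 of 14 receptors outside their counting interval. It changed the sign of 1, FGFR1, which rescaling also did. These counts were not set beside those of all fitted genes. Residuals are in log2(FPKM + 1) and intervals in read ratios, and these scales differ at low FPKM. Before any regression DDR1 was at -0.21 on the first and -0.41 on the second. Against P-Enter in WT the regression changed the sign of 3 (AXL, EPHA2 and EPHB4), and between L597R and WT of 2 (PTK7 and MST1R). Rescaling changed the sign of EPHB4 in WT against P-Enter and of no receptor in L597R against WT. Other pseudocounts and recovered reads changed the sign of 0 receptors. Depth limits the receptors with few reads: 11 of the 31 with a row had at most 3 reads in L597R, 10 in WT and 7 in P-Enter. No paired analysis was possible because each group has 1 library.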
